A study of Mus musculus with 9 samples.

Results

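Gm1966 is a mouse gene of the very large interferon-inducible GTPase family, described here across naive CD8 T cells stimulated with D-2HG, with L-2HG or with neither. It was chosen by its measured levels in these same libraries, for opposite directions under the 2 enantiomers relative to control, so its own levels are a description and carry no test. It is 1 gene of 55011 in the count table, of which 10235 passed a filter on low counts, Gm1966 among them. A search for symbols that start with Gvin, as relatives, returned 1 gene, Gvin1, which did not pass that filter. A search by sequence, made after the counts had been seen, gave 10 loci similar to Gm1966 with Gvin1 included, and 2 of them, Gm8995 and Gm4759, passed.

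The cells came from the spleen of wild-type (WT) mice and were activated for 6 h on plates coated with antibodies to CD3 and CD28 at 4 µg/mL. One enantiomer, D-2HG or L-2HG, was present at 20 mM from the start of stimulation, control cells received neither, and each of the 3 groups has 3 libraries. The pair are enantiomers, the mirror images of 1 molecule, 2-hydroxyglutarate. The labels give no strain, age or sex and do not say whether the 3 libraries of a group are separate mice or cultures, so the spread behind each p-value may be technical.

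Very large interferon-inducible GTPases (GVIN, or VLIG) are among the largest GTPases known, and their long coding part lies mostly in 1 exon. They are distant relatives of the guanylate-binding proteins (GBPs) and immunity-related GTPases (IRGs), which act against intracellular pathogens and are induced by interferon through JAK kinases and transcription factors of the IRF family. Activated CD8 T cells make interferon gamma themselves and respond to it. Mice carry the GVIN genes as a cluster of near-copies on chromosome 7.

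The copies resemble each other so closely that short reads cannot always be assigned to 1 of them, so a stretch of 90 bases is shown for Gm1966, its 2 counted neighbours and Gvin1. The stretch of Gm1966 lies at chr7:106600346-106600435 on the minus strand of GRCm38 in GENCODE M21, and the sequences read 5′ to 3′ along the transcripts. Capitals mark bases that differ from Gm1966.
Gm1966: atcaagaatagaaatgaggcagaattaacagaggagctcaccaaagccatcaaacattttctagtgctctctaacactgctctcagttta
Gm8995: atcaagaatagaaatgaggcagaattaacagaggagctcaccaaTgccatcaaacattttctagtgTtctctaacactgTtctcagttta
Gm4759: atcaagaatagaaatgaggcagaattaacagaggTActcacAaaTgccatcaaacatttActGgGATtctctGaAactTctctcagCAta
Gvin1: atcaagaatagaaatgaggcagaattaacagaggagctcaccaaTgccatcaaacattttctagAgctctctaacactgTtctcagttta
Gm8995 and Gvin1 each differ from Gm1966 at 3 of these 90 bases, and Gm4759 differs at 14.

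Over whole transcripts, 9 of the 10 loci are 88.1% to 93.4% identical to Gm1966 over aligned bases, and Gm4759 is 83.7% identical. Gm8979 is the closest at 93.4%, Gvin1 stands at 92.9% and Gm8995 at 91.9%. Identity alone does not fix how far reads can be placed. Of all stretches of 50 bases in the Gm1966 transcript, 17.5% occur without a mismatch in the transcript of another gene, and 5.57% of stretches of 75 bases and 1.06% of stretches of 100 bases do. The same share for 50 bases is 19.0% in Gm8995 and 2.51% in Gm4759, but 99.1% in Gvin1, 98.9% in Gm4070 and 85.8% in Gm8979. Most of Gm1966, Gm8995 and Gm4759 can therefore be told apart at these lengths, and almost nothing of Gvin1 and Gm4070 can. The read length, and whether reads that fit several loci were counted, are not given in the sources used here, so a count of 0 or near 0 at Gvin1 or Gm4070 is not a measure of their expression.

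**Figure D1:**
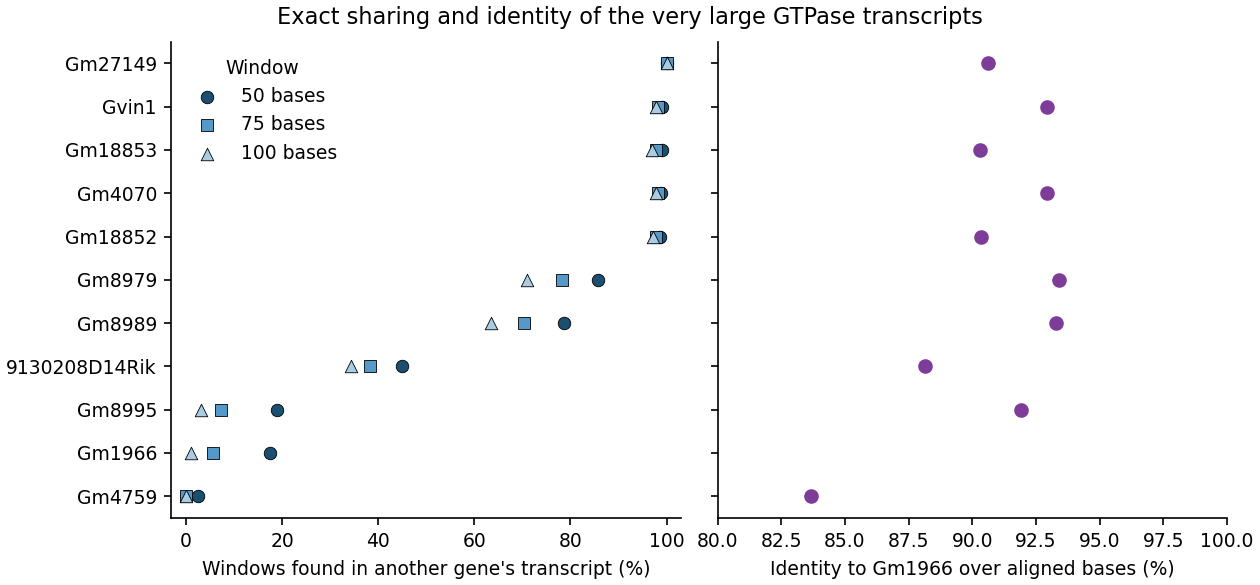
Sequence sharing among the 11 similar transcripts: left, the share of all stretches of 50, 75 or 100 bases that occur in the transcript of another gene (%); right, identity to Gm1966 over aligned bases (%, axis from 80 to 100). Gm1966, Gm8995 and Gm4759 lie at the low end of sharing, with 17.5%, 19.0% and 2.51% at 50 bases, while Gvin1 and Gm4070 lie near 100%.

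Annotations disagree on what Gm1966 is. GENCODE M21 places ENSMUSG00000073902 at chr7:106596743-106604035 on the minus strand as 1 exon of 7293 bases and calls it an unprocessed pseudogene. RefSeq calls Gm1966 protein coding and gives it 49098 bases at chr7:106595549-106644646, so its start site lies 40.6 kb upstream of the GENCODE one. Gm8995 (ENSMUSG00000063286), a transcribed unprocessed pseudogene in GENCODE, lies at -92.5 kb from it, start to start, at chr7:106504239-106511671, and Gm4759 (ENSMUSG00000053541), an unprocessed pseudogene, lies at chr7:106417848-106424469. Gvin1 (ENSMUSG00000045868) is protein coding in both annotations, at chr7:106156556-106215326 in GENCODE. On the other side of Gm1966 the cluster ends, and the next genes are the olfactory receptors Olfr693, Olfr694 and Olfr695 and the pseudogene Olfr696-ps1.

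The window of 300 bases around the RefSeq start site of Gm1966 (250 before to 50 after it; RefSeq, GRCm38.p6, chr7:106644596-106644895, minus strand) is shown because interferon-stimulated response elements lie in the promoters of many genes of this class. Capitals mark matches to the core of that element (ISRE; GAAA, any 2 bases, GAAA) and to a shorter core bound by IRF proteins (AA, any 2 bases, GAAA), searched on both strands.
Gm1966 promoter: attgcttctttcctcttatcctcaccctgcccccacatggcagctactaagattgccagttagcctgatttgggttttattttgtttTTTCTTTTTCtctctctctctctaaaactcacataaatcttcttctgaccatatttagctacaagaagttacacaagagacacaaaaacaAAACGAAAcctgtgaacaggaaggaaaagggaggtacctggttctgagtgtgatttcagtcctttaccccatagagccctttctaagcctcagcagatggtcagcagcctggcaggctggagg
The ISRE core matched once, as TTTCTTTTTC on the opposite strand, with its first base 163 bases before the start site and in the middle of a pyrimidine run, and an IRF core match overlaps it. The IRF core matched once more, as AAACGAAA 73 bases before the start site. The gamma-activated sequence (GAS; TTC, any 3 bases, GAA) had no match in this window.

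Matches of this kind are common in some classes and rare over the genome. The ISRE core occurs in 3.44% of 32851 RefSeq promoter windows, the GAS in 8.30% and the IRF core, added to the search later, in 23.9%. Of the listed genes present in the promoter table, 5 of 5 GBP genes, 5 of 5 IRG and Mx genes, 18 of 35 other interferon-stimulated genes and 3 of 16 interferon signalling genes held the ISRE core, against 3.99% of all 27025 genes. For comparison, 40 bases around the match nearest to the start site are given for Gm1966, for Gbp2 (chr3:142620589-142620628, plus strand) and for Igtp (chr11:58199507-58199546, plus strand), with the ISRE core in capitals.
Gm1966: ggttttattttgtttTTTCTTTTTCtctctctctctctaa
Gbp2: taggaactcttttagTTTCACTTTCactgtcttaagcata
Igtp: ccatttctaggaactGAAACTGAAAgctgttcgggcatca
Read in the motif's own direction, the match is GAAAAAGAAA in Gm1966, GAAAGTGAAA in Gbp2 and GAAACTGAAA in Igtp. It begins 163, 59 and 34 bases before the start site in Gm1966, Gbp2 and Igtp, in that order. A match is a run of letters and not a measured binding site.

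The libraries held 2431371 to 4139601 counts with D-2HG, 562627 to 2562692 with L-2HG and 1990896 to 5731885 in controls, and L-2HG replicate 2 was the shallowest. CD8 T cell markers (Cd8a, Cd8b1, Cd3e, Cd3g and Trac) summed to 2087 to 2442 CPM (counts scaled to library totals corrected by the trimmed mean of M values, TMM) with D-2HG, 1895 to 2745 CPM with L-2HG and 2593 to 4244 CPM in controls, while Cd4 was at 1.38 CPM or less in every library. The CD4 T cell list (Cd4, Foxp3 and Cd40lg) averaged 14.4, 15.1 and 10.5 CPM with D-2HG, with L-2HG and in controls. Most of that was Cd40lg, at 12.9, 13.5 and 8.72 CPM in the same order. B cell markers averaged 134, 157 and 247 CPM with D-2HG, with L-2HG and in controls, nearly all of it Ighm. Dendritic cell markers averaged 14.1, 17.7 and 7.12 CPM in the same order, most of it Zbtb46 at 10.1, 13.3 and 6.13 CPM. Monocyte, NK cell and neutrophil lists stayed at 9.51 CPM or less. The repeat-like loci Gm10800 and Gm10801 took 9.22% ± 6.95 of counts with D-2HG, 13.0% ± 9.90 with L-2HG and 2.56% ± 2.43 in controls (SD, n = 3 each). In bulk RNA, fewer cells of a type and less RNA per cell cannot be told apart.

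Gm1966 was lowest with D-2HG, highest with L-2HG and between them in control cells. Its deposited counts were 32, 35 and 31 with D-2HG, 122, 27 and 71 with L-2HG, and 91, 68 and 106 in controls. As TMM-scaled CPM these were 11.0, 7.99 and 14.0 CPM with D-2HG, 44.6, 53.3 and 33.8 CPM with L-2HG, and 21.5, 33.0 and 19.2 CPM in controls. Every D-2HG library lay below every other library. The lowest L-2HG library, replicate 3, stood next to the highest control, replicate 2, with no gap beyond counting error: the exact 95% Poisson intervals were 26.4 to 42.6 CPM and 25.6 to 41.8 CPM. Such intervals cover counting error only. In each group, the library with the highest level also had the largest share of counts on Gm10800 and Gm10801. These were D-2HG replicate 3 (17.0%), L-2HG replicate 2 (24.4%) and control replicate 2 (5.35%). Between groups, the mean share was above controls (2.56%) with both L-2HG (13.0%) and D-2HG (9.22%), where Gm1966 was higher and lower. A link was not tested.

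Group means of Gm1966 were 11.0 ± 3.00 CPM with D-2HG, 43.9 ± 9.78 CPM with L-2HG and 24.6 ± 7.36 CPM in controls (SD, n = 3 each). The fitted log2 fold change was -1.16 ± 0.29 (SE; 95% interval -1.77 to -0.55) for D-2HG against control, a level 2.23-fold lower. For L-2HG against control it was 0.82 ± 0.28 (SE; 0.24 to 1.41), 1.77-fold higher, and for D-2HG against L-2HG it was -1.98 ± 0.30 (SE; -2.61 to -1.35), 3.95-fold lower. Because Gm1966 was chosen by these differences, the intervals describe the fit only. Their stated coverage does not hold, and leaving out 0 is not a test result. Both comparisons with control use the same 3 control libraries, so a high or low control library shifts both fold changes the same way. Without control replicate 2, the control closest to L-2HG, D-2HG against control was -0.94 and L-2HG against control was 1.02.

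The 3 ranges of CPM did not overlap in any of the comparisons. For this gene that is how it was chosen, and it was also true of 40% of tested genes for D-2HG against control, 31.2% for L-2HG against control and 15.9% for D-2HG against L-2HG. Among the 10235 tested genes, Gm1966 had rank 17 from the lowest fold change for D-2HG against L-2HG, rank 212 from the lowest for D-2HG against control and rank 1575 from the highest for L-2HG against control. These ranks rest on the fold changes the gene was chosen by.

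**Figure D2:**
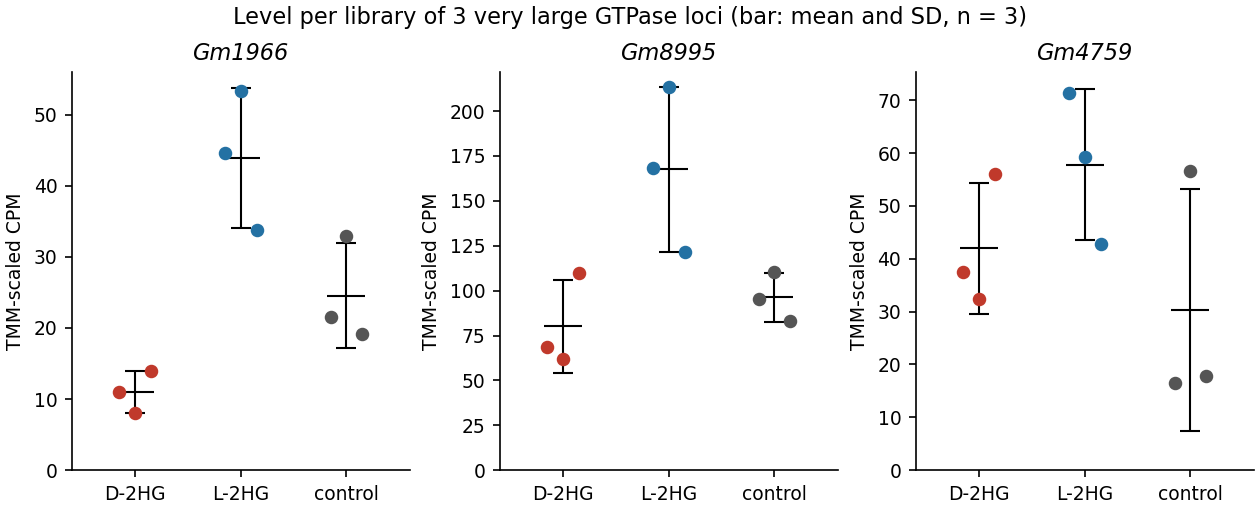
TMM-scaled CPM of Gm1966, Gm8995 and Gm4759 in each library (points), with the mean and SD of each group (bars, n = 3). Gm1966 lies between 7.99 and 14.0 with D-2HG, between 33.8 and 53.3 with L-2HG and between 19.2 and 33.0 in controls, while the D-2HG and control points overlap for Gm8995 and all 3 groups overlap for Gm4759.

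Stray reads over silent genes made up more of the Gm1966 counts with D-2HG than in controls. Reads over 1692 sensory receptor genes, which T cells are not known to use, gave an expected 3.54 to 4.01 background counts on the length of Gm1966 with D-2HG, 0.985 to 8.70 with L-2HG and 1.54 to 2.15 in controls. That is 11.4% to 12.5% of the Gm1966 counts with D-2HG, 3.41% to 12.3% with L-2HG and 1.45% to 3.14% in controls. With this background subtracted, the log2 fold changes were -1.32 for D-2HG against control, 0.77 for L-2HG against control and -2.08 for D-2HG against L-2HG.

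Gm8995, the nearest of the similar loci and the one with the most counts assigned to it, was higher with L-2HG than in controls. Its difference with D-2HG did not pass. Its levels were 68.8, 61.7 and 109.7 CPM with D-2HG, 168.5, 213.2 and 121.3 CPM with L-2HG, and 95.4, 110.5 and 83.2 CPM in controls. All L-2HG libraries lay above all others. D-2HG replicates 1 and 2 lay below every control, while D-2HG replicate 3 lay with the controls. For L-2HG against control the log2 fold change was 0.78 ± 0.25 (SE; adjusted p = 0.0375, higher in 3 of 3 libraries), a call that 17.7% of tested genes shared and that was kept under 10 of 17 other settings. The adjusted p was 0.166 without control replicate 3, 0.122 without L-2HG replicate 2, 0.116 without L-2HG replicate 1, 0.111 without control replicate 1 and 0.0556 without D-2HG replicate 1. It was 0.309 with no count filter and 0.0617 with only the groups compared.

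For D-2HG against control, Gm8995 had a log2 fold change of -0.27 (95% interval -0.78 to 0.23; adjusted p = 0.415). Without D-2HG replicate 3 it was -0.57 (adjusted p = 0.153), and without D-2HG replicate 2 it was -0.12 (adjusted p = 0.788). For D-2HG against L-2HG it was -1.05 ± 0.25 (SE; -1.57 to -0.53), 2.07-fold lower, with an adjusted p of 0.0843 that did not pass 0.05. DESeq2 gave 0.02 for it, and leaving out control replicate 2 gave 0.0355. Only 0.303% of tested genes passed in this comparison.

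Gm4759, the next locus along, did not pass in any comparison. Its levels were 37.5, 32.4 and 56.0 CPM with D-2HG, 71.3, 59.2 and 42.8 CPM with L-2HG, and 16.6, 56.7 and 17.7 CPM in controls. Control replicate 2 stood more than 3 times above the other controls and within the range of the treated cells. The log2 fold changes were 0.53 (-0.34 to 1.40; adjusted p = 0.345) for D-2HG against control, 1.01 (0.11 to 1.90; adjusted p = 0.0978) for L-2HG against control and -0.48 (-1.35 to 0.40; adjusted p = 0.876) for D-2HG against L-2HG. Without control replicate 2 they were 1.25 (adjusted p = 0.00151) for D-2HG against control and 1.72 (adjusted p = 0.000274) for L-2HG against control, so that 1 library decides both calls.

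Per length of exon, Gm8995 was the most abundant of the 3 in each group. Mean levels of Gm8995 were 10.8 CPM per kb with D-2HG, 22.6 with L-2HG and 13.0 in controls. Those of Gm4759 were 6.34, 8.72 and 4.58 CPM per kb with D-2HG, with L-2HG and in controls, and those of Gm1966 were 1.51, 6.02 and 3.37 CPM per kb in the same order. Gm1966 and Gm4759 had neighbouring levels in controls, where single libraries ran from 2.63 to 4.52 CPM per kb for Gm1966 and from 2.50 to 8.56 for Gm4759. With D-2HG they were apart, at 1.10 to 1.92 and 4.90 to 8.45 CPM per kb.

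**Figure D3:**
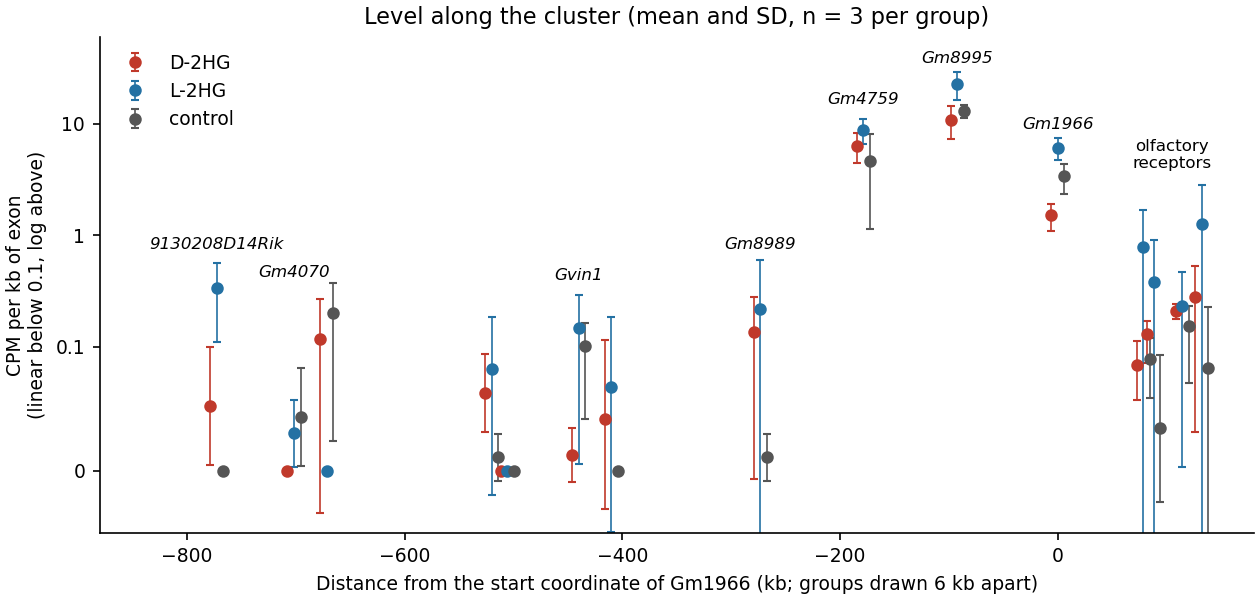
Mean level (CPM per kb of exon, linear below 0.1 and logarithmic above; bars SD, n = 3) of the 11 similar loci and of olfactory receptor genes against their distance from Gm1966 (kb), for D-2HG, L-2HG and control. Gm4759, Gm8995 and Gm1966 stand next to each other with means of 1.51 to 22.6, and the loci further left are near 0. Those loci share 44.9% to 100% of their stretches of 50 bases with other transcripts, so low counts there need not mean low expression.

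The other members of the cluster had next to no counts. Of their stretches of 50 bases, 44.9% to 100% occur in other transcripts, so low counts there need not mean low expression. Gvin1, which gives the family its name, had 1, 0 and 0 counts with D-2HG, 7, 0 and 3 with L-2HG and 4, 3 and 2 in controls. It was too low for the count filter, and with no filter its adjusted p was 0.422 for D-2HG against control, 0.734 for L-2HG against control and 0.732 for D-2HG against L-2HG. At so few counts these values cannot show whether Gvin1 differed. Gm4070, Gm8979, Gm8989, 9130208D14Rik, Gm18852 and Gm18853 had at most 10 counts in any library, and Gm27149 had 0 in all. The highest of them were Gm8989 with 10 and 9130208D14Rik with 9 counts, both in L-2HG replicate 3. The olfactory receptor loci beyond Gm1966 had 0 to 15 counts, and their highest, 15 in Olfr693 and 11 in Olfr694, also came from L-2HG replicate 3, the library with most reads over sensory receptor genes. Counts of the further neighbours Gm27150, Gm22372 and Gm44857 were 0 throughout.

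Within the cluster, the part of the counts that fell on Gm1966 had close means with L-2HG and in controls and was about 2 times smaller with D-2HG. Of all counts on the 11 similar loci, Gm1966 held 9.01%, 7.76% and 7.71% with D-2HG, 15.4%, 16.3% and 16.1% with L-2HG, and 15.8%, 16.2% and 15.8% in controls. The means were 8.16% ± 0.738 with D-2HG, 15.9% ± 0.450 with L-2HG and 16.0% ± 0.234 in controls (SD, n = 3 each). Exact Clopper-Pearson 95% intervals ran from 5.30% to 12.5% over the D-2HG libraries, from 11.0% to 22.8% over the L-2HG libraries and from 12.8% to 20.1% over the controls.

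This ratio needs no scaling between libraries, so it does not depend on TMM. Set against Gm8995 alone, Gm1966 made up 13.8%, 11.5% and 11.3% of the counts of the pair with D-2HG, 20.9%, 20.0% and 21.8% with L-2HG, and 18.4%, 23.0% and 18.7% in controls. The exact 95% interval of D-2HG replicate 1 for this pair, 9.63% to 18.9%, overlaps that of control replicate 1, 15.1% to 22.1%. The cluster without Gm1966 averaged 124.5 ± 38.1 CPM with D-2HG, 231.9 ± 50.2 CPM with L-2HG and 128.9 ± 36.2 CPM in controls (SD, n = 3 each), so the D-2HG and control means of the remaining loci lay within their spread. With L-2HG, the means of Gm1966 and of the rest of the cluster were both higher than in controls. With D-2HG, the mean of Gm1966 was lower. The rest then combined Gm8995 at log2 -0.27 and Gm4759 at 0.53 against control, neither of which passed. No test was made of either share, since they contain the gene chosen for its pattern.

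**Figure D4:**
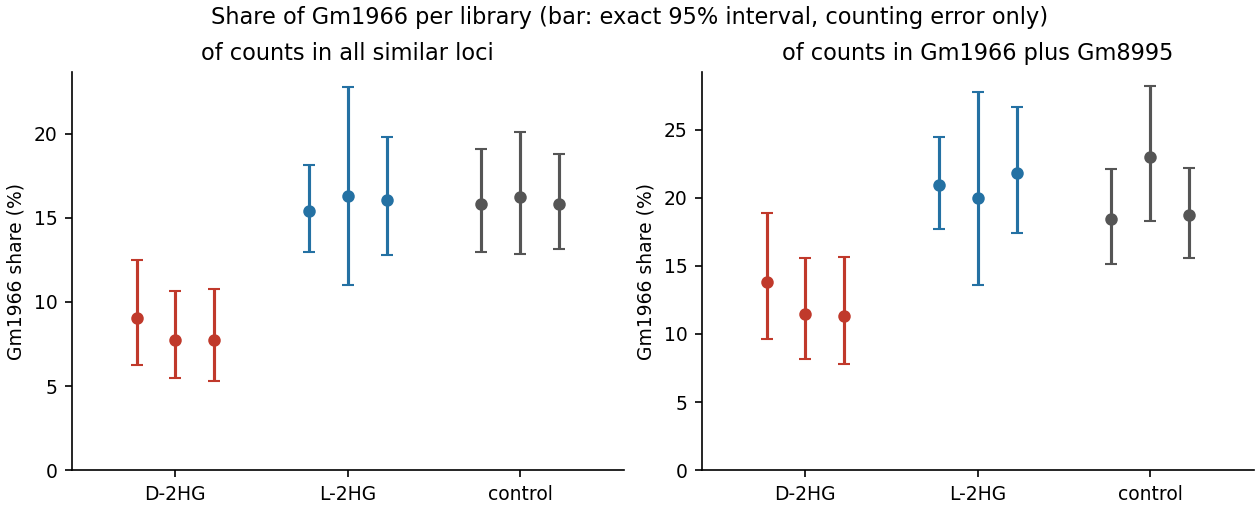
Share of counts on Gm1966 per library (%; bars, exact 95% intervals for counting error only), left among all 11 similar loci and right among Gm1966 plus Gm8995. The D-2HG libraries lie at 7.71% to 9.01% on the left and the other 6 libraries at 15.4% to 16.3%.

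The related GTPase families showed what the enantiomers did to better known genes of this class. Of 11 listed GBP genes 8 passed the count filter, and all 8 of these fell with D-2HG against control, where 22.3% of tested genes passed, 10.5% lower and 11.8% higher. With L-2HG, 3 fell against control (Gbp2, Gbp7 and Gbp8), where 8.3% of tested genes fell. Directly between the enantiomers, 5 were lower with D-2HG than with L-2HG (Gbp2, Gbp3, Gbp4, Gbp7 and Gbp8), where 0.254% of tested genes were lower and 0.0489% higher. The median log2 fold changes over the 8 were -2.58 for D-2HG against control, -0.78 for L-2HG against control and -1.87 for D-2HG against L-2HG, beside 0.04, 0.05 and 0.01 over all tested genes. Between the enantiomers the count was 3 without D-2HG replicate 2, D-2HG replicate 3, L-2HG replicate 1 or L-2HG replicate 3.

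Gbp2, which encodes a guanylate-binding protein strongly induced by interferon gamma, had 16.2, 13.2 and 16.7 CPM with D-2HG, 64.3, 84.9 and 98.9 CPM with L-2HG, and 281.3, 245.2 and 320.5 CPM in controls. The groups were far apart, with L-2HG between the others. Its log2 fold changes were -4.21 ± 0.24 for D-2HG against control (adjusted p = 1.05e-09), -1.78 ± 0.21 for L-2HG against control (adjusted p = 0.000159) and -2.43 ± 0.24 for D-2HG against L-2HG (SE; adjusted p = 1.97e-05). Gbp4 averaged 50.9 ± 9.97 CPM with D-2HG, 177.7 ± 65.5 CPM with L-2HG and 189.9 ± 28.2 CPM in controls (SD, n = 3 each); it fell with D-2HG (log2 -1.90; adjusted p = 6.73e-05), and its difference of -0.13 with L-2HG did not pass (adjusted p = 0.71).

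Of 8 listed IRG and Mx genes, 6 passed the filter, all of them IRGs. All 6 fell with D-2HG against control, 2 of them (Igtp and Iigp1) fell with L-2HG against control, and all 6 were lower with D-2HG than with L-2HG, beside 10.5%, 8.3% and 0.254% of tested genes lower in these comparisons. Their medians were -2.03, -0.48 and -1.82 in these comparisons. Against control, the L-2HG count was 0 without control replicate 3 and 1 without control replicate 1 or L-2HG replicate 1. Igtp, also known as Irgm3, had 29.6, 32.0 and 32.5 CPM with D-2HG, 98.3, 80.9 and 146.5 CPM with L-2HG, and 306.4, 161.9 and 272.4 CPM in controls. Its fall with L-2HG (log2 -1.16 ± 0.25 SE; adjusted p = 0.0103) no longer passed without control replicate 1 or without control replicate 3 (highest adjusted p = 0.0673). Irgm2, an IRG that regulates other members of its family, averaged 9.54 ± 1.63 CPM with D-2HG, 33.0 ± 8.08 with L-2HG and 33.5 ± 4.97 in controls (SD, n = 3 each), so its difference between the enantiomers (log2 -1.84; adjusted p = 0.00204) came with an L-2HG level at the control level.

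Set beside these families, Gm1966 has the D-2HG direction of the GBPs and IRGs and differs from the called ones in its L-2HG direction. Its difference between the enantiomers, -1.98 on the log2 scale, lies within the range of the 6 tested IRGs and 8 tested GBPs (-2.43 to -1.23). Its difference for L-2HG against control, 0.82, lies above their whole range of -1.78 to 0.36. Gm8995 at 0.78 and Gm4759 at 1.01 do as well, and so do some other interferon-stimulated genes given below. For Gm1966 this place reflects how it was chosen, for opposite directions with the 2 enantiomers. These are comparisons of fold changes, and the differences between genes were not tested.

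Among 33 tested of 45 other listed interferon-stimulated genes, 17 fell and 0 rose with D-2HG against control, 7 fell and 0 rose with L-2HG against control, and 5 were lower and 0 higher with D-2HG than with L-2HG (Ifi47, Zbp1, Ifi213, Ly6a and Psmb9). Over all tested genes 10.5%, 8.3% and 0.254% were lower in these comparisons. Medians were -0.75, -0.01 and -0.69. For L-2HG against control the count was 2 without control replicate 1, control replicate 3 or L-2HG replicate 1 and 14 without control replicate 2. Between the enantiomers it was 0 without D-2HG replicate 3 or L-2HG replicate 1 and 2 without D-2HG replicate 1, D-2HG replicate 2 or L-2HG replicate 3. Some members had positive values with L-2HG against control that did not pass: Ifit2, Eif2ak2 and Ddx58, named after their values were seen, stood at log2 2.04 (adjusted p = 0.054), 1.34 (0.0636) and 0.83 (0.0825). Ly6a, the gene of the surface antigen Sca-1, averaged 4.40 ± 2.16 CPM with D-2HG, 16.7 ± 6.33 with L-2HG and 105.8 ± 27.9 in controls (SD, n = 3 each). Ifi213, of the family of DNA-binding IFI200 proteins, fell with D-2HG (log2 -1.74; adjusted p = 0.00111) and stood at 0.02 with L-2HG (adjusted p = 0.963). Slfn2, a Schlafen gene that maintains T cell quiescence in mice, fell with both, by 1.12 with D-2HG (adjusted p = 0.00294) and by 1.21 with L-2HG (adjusted p = 0.00386) on the log2 scale.

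Among upstream genes both directions were seen. Of 19 listed interferon signalling genes 18 were tested, and with D-2HG against control 6 fell (Ifng, Irf1, Irf7, Irf8 and Irf9 among them) and 3 rose (Jak1, Tyk2 and Stat3), where 10.5% of tested genes fell and 11.8% rose. With L-2HG against control 4 fell (Ifng, Irf1, Irf8 and Irf9) and 3 rose (Jak1, Tyk2 and Nlrc5), where 8.3% of tested genes fell and 9.41% rose. Between the enantiomers, 2 were lower with D-2HG, where 0.254% of tested genes were lower, Irf1 among them (log2 -1.21; adjusted p = 0.0182, with up to 0.2 when D-2HG replicate 1, D-2HG replicate 3, L-2HG replicate 1 or L-2HG replicate 3 was left out). Ifng, counted among the genes that fell with each enantiomer, passed the count filter only through the controls, which limits its part in these counts. Medians over the 18 were 0.09, 0.36 and -0.30. For D-2HG against control, 5 passed without control replicate 3. For L-2HG against control, 0 passed without control replicate 3, 2 without control replicate 1 or L-2HG replicate 1, 3 without L-2HG replicate 2, 4 without D-2HG replicate 1 and 11 without control replicate 2. Between the enantiomers 1 passed without D-2HG replicate 1, D-2HG replicate 3, L-2HG replicate 1 or L-2HG replicate 3.

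Irf1, which encodes an interferon-induced activator of GBP and IRG genes, had 47.1, 66.7 and 44.7 CPM with D-2HG, 117.7, 100.7 and 145.6 CPM with L-2HG, and 232.8, 151.2 and 204.9 CPM in controls. Ifng, the cytokine itself, averaged 0.914 ± 0.462 CPM with D-2HG, 1.37 ± 1.19 with L-2HG and 8.21 ± 3.15 in controls (SD, n = 3 each). Summed over the libraries of a group, it had 9 counts with D-2HG, 10 with L-2HG and 86 in controls. It passed the count filter only through the controls, which limits its calls against control. It fell with each enantiomer against control (adjusted p = 0.00384 with D-2HG and 0.0276 with L-2HG, with up to 0.0945 when control replicate 1, control replicate 3, L-2HG replicate 1 or L-2HG replicate 2 was left out), and its difference between them had a wide interval (log2 -0.91, -2.52 to 0.70; adjusted p = 0.872).

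**Figure D5:**
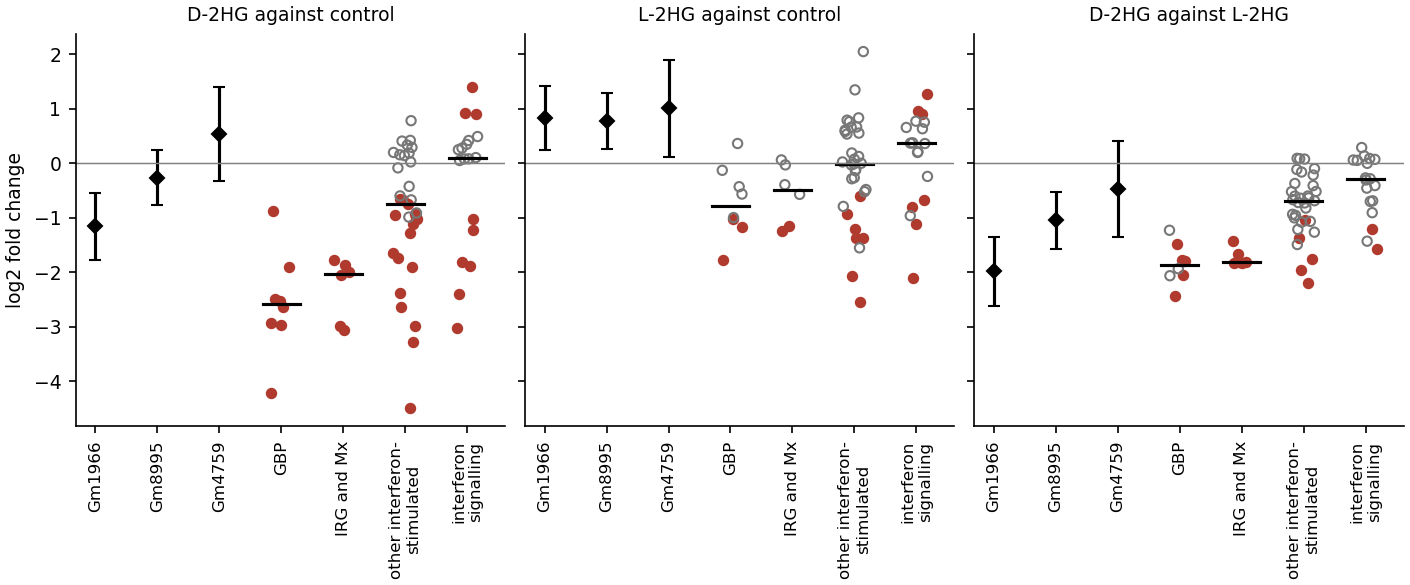
Log2 fold changes of D-2HG over control (left), L-2HG over control (middle) and D-2HG over L-2HG (right), for Gm1966, Gm8995 and Gm4759 (diamonds with 95% intervals) and for the tested members of 4 lists (filled points, adjusted p under 0.05; open points, not; bars, list medians). In the middle panel Gm1966 stands at 0.82 while the GBP and IRG medians are -0.78 and -0.48. Gm1966 was chosen by its differences, so its intervals describe the fit and are not a test.

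Among 9086 genes with a mean of at least 5 CPM, 7 of the 8 whose log2 CPM ran most like Gm1966 over the 9 libraries were Arhgef18 (Pearson r = 0.951), Dnttip1 (0.946), 6430590A07Rik (0.935), Arhgap15 (0.919), Gm8995 (0.914), Gm34006 (0.912) and Tspan32 (0.912). These values describe the same 9 libraries that differ by group, and were picked as the highest. Gm8995 was the fifth of 9086, and Gm4759 had rank 973 with r = 0.434. Arhgef18 encodes an activator of small GTPases and Arhgap15 an inactivator of Rac.

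Arhgef18 averaged 19.9 ± 1.27 CPM with D-2HG, 42.3 ± 11.5 with L-2HG and 28.9 ± 6.25 in controls (SD, n = 3 each), and its log2 difference of -1.06 between the enantiomers did not pass (adjusted p = 0.121). Of these 7 genes, Tspan32, a tetraspanin of blood cells, passed for D-2HG against control (log2 -1.05; adjusted p = 0.0134, with up to 0.0689 when control replicate 1 or D-2HG replicate 2 was left out), and Gm8995 passed for L-2HG against control. Over all tested genes, 10.5% were lower in the first comparison and 9.41% were higher in the second. The 7 were picked for following a gene chosen for its group pattern, so calls among them in that direction are a description. The genes that ran most against Gm1966 were Clcn4 (r = -0.969), Esd (-0.943) and Gabarapl1 (-0.928). They were picked for opposing it, so their calls are a description too. Clcn4 changed little, by log2 0.13 for D-2HG against control, -0.10 for L-2HG against control and 0.24 for D-2HG against L-2HG, and did not pass. Esd, an esterase, was higher with D-2HG, at 647.0 ± 38.2 CPM, than with L-2HG, at 311.6 ± 95.02 CPM (SD, n = 3 each; log2 1.04, adjusted p = 0.0495), a call that was lost without control replicate 3, any 1 of the 3 D-2HG libraries, L-2HG replicate 1 or L-2HG replicate 2 (adjusted p up to 0.25). It was also lost with DESeq2 size factors (0.0532), with library totals without TMM (0.0922) and without Gm10800 and Gm10801 (0.0503).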

How the data were processed

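Polyadenylated RNA of 9 libraries was primed with oligo(dT), amplified and tagmented, per the labels' protocols. The deposited counts per gene were made by the authors with STAR 2.7.3a and featureCounts on mm10, per the submitters' processing notes; strand and multi-mapping settings are not given in the sources used here. The deposited signal table holds these counts divided by size factors and served only to pair symbols with gene identifiers. Tests were run on the counts with edgeR 4.0.16 (R 4.3.3): filterByExpr (minimum count 10), TMM, 1 robust quasi-likelihood fit over 9 libraries (6 residual degrees of freedom), F tests and Benjamini-Hochberg adjustment over 10235 genes. A gene passed at adjusted p under 0.05; "rose" and "fell" mean this. The scripts were tested on simulated data. Of 55011 symbols, 54796 had a GENCODE M21 position. Similar loci had a BLAST+ 2.17.0 alignment of at least 1000 bases at 80% identity or more; MAFFT 7.526 aligned them. Promoters are from RefSeq.

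The members and lists were chosen with earlier results of these data known. Named genes were Gm1966, its relatives and 5 annotated neighbours on each side, the 8 genes most and 3 least correlated with it, and, per list and comparison, the 3 smallest adjusted p-values; a few genes that this rule gives are not reported here. Alternatives were DESeq2 1.42.0, 2 other scalings, a mean count of at least 50, no filter, a replicate block, only the compared groups, each library left out and, added later, 2 loci (Gm10800, Gm10801) left out and background subtraction.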

Additional observations from a re-analysis of the deposited data

Results flagged for a closer look

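Gm1966 moved in opposite directions with the 2 enantiomers: every D-2HG library lay below every control library and every L-2HG library above, and the log2 difference between D-2HG and L-2HG was -1.98. The difference was not tested, since the gene was chosen for it. L-2HG replicate 3 (33.8 CPM) and control replicate 2 (33.0 CPM) are separated by less than their counting error.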

How the results depend on the processing

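Over 18 other settings the log2 fold changes of Gm1966 ran from -1.36 to -0.94 for D-2HG against control, 0.57 to 1.02 for L-2HG against control and -2.16 to -1.76 for D-2HG against L-2HG, and no result reversed. Of 58 results for other named genes, 31 kept their side of the threshold under every setting. The groups share replicate numbers, but the correlations of same-numbered libraries' deviations were not over 0.1 in every pair (-0.17 to 0.28; 0.0967, 0.283 and 0.123 for L-2HG against control), so the numbers were not taken as pairs; with a replicate block, 2314, 2284 and 35 genes passed for D-2HG over control, for L-2HG over control and for D-2HG over L-2HG (2278, 1812 and 31 without it), and Gm1966 stood at -1.15, 0.84 and -1.99.

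For D-2HG against control, 1341 genes passed with no count filter (39.6% of them higher); with a mean count of at least 50, 4 GBP and 11 other interferon-stimulated genes did. For L-2HG against control, 1195 genes passed with a mean of at least 50 and 427 with only the groups compared; 4 other interferon-stimulated genes did under either, and 4, 4 and 2 signalling genes with library totals, a mean of at least 50 and only the groups compared. For D-2HG against L-2HG, DESeq2 called 49 genes, 3 other interferon-stimulated genes passed with only the groups compared, and 1 signalling gene with no filter.

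Leaving out 1 library gave 384 (without control replicate 3) to 4257 (without control replicate 2) genes for D-2HG against control, 65 to 4108 (the same 2 libraries) for L-2HG against control and 10 (without L-2HG replicate 1) to 60 (without control replicate 2) for D-2HG against L-2HG. In the same order, GBP calls ran from 7 to 8, 2 to 4 and 3 to 6; IRG calls from 6 to 6, 0 to 3 and 4 to 6; other interferon-stimulated calls from 12 to 19, 2 to 14 and 0 to 5; and signalling calls from 5 to 11, 0 to 11 and 1 to 2. Without control replicate 1, or without D-2HG replicates 1, 2 or 3, 450, 826, 1058 and 641 genes passed for D-2HG against control. With L-2HG against control, 177, 394 and 744 passed without control replicate 1, L-2HG replicate 1 and L-2HG replicate 2. For D-2HG against L-2HG, 16, 16, 13 and 15 passed without D-2HG replicate 1, 2, 3 and L-2HG replicate 3. The cause was not tested. Gm1966 had 27 to 122 counts per library, which limits its precision.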
